A study of Homo sapiens with 18 samples.

Results

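The cytosolic ribosomal protein genes encode the proteins of the large (RPL) and small (RPS) subunits of the ribosome outside mitochondria. They were chosen by their symbols in the platform annotation: RPL or RPS followed by a number, with A, L or X endings and the stalk proteins included, and without pseudogenes and RPS6K kinases. The annotation named 73 such genes by 121 probes, and 70 of them were detected and tested, among 11600 genes tested in all. Of the 70, 44 belonged to the large and 26 to the small subunit.

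In this study 6 established human lines of pancreatic cancer were profiled on Illumina HT-12 v4 BeadChips, whose oligonucleotide probes are each designed against a transcript. MiaPaCa2, Panc1 and SU8686 were labelled as dasatinib-resistant (dasatinib inhibits kinases of the SRC family and ABL), and Panc0403, Panc0504 and Panc1005 as sensitive. Each line had 3 arrays, described as biological triplicates, and no label gives a treatment of the cells before extraction, an allele or a transgene. The array codes place Panc0504 at the later positions (G, H, I) and Panc0403 at the earlier positions (A, B, C) of slide 1. Likewise SU8686 lay at the later and Panc1005 at the earlier positions of slide 2, and Panc1 at the later and MiaPaCa2 at the earlier positions of slide 3. Line and position on a slide therefore cannot be told apart, and slides 1 and 3 each held lines of 1 response.

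Ribosomes outside mitochondria translate cellular mRNA, and most of their proteins are needed in equal copy number. Their genes are known for high and coordinate expression in growing cells. Many of their mRNAs start with a C followed by a run of C and T, the 5′ terminal oligopyrimidine tract, through which mTORC1 signalling and the RNA-binding protein LARP1 set their translation. A few members are paralogues of a core protein with a narrower role: RPL39L and RPL10L are known from testis, RPL3L from heart and skeletal muscle, and RPS27L as a target of p53. RPL5 and RPL11 also bind MDM2 and so tie ribosome assembly to p53.

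The start of transcription is shown here for members on which the results turn, as the sequence from 20 bases before to 10 bases after the start, from RefSeq promoters on GRCh38.p14. Capitals mark the pyrimidine tract, searched on the gene's own strand within 10 bases either side of the start as a C followed by at least 4 letters that are each C or T.
RPLP2, of the smallest spread across lines (chr11:809947-809976, plus strand): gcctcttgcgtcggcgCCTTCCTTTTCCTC
RPL36A, which differed between positions (chrX:101390991-101391020, plus strand): ttccgtttgcctcgcggtttCTTTCTTTCC
RPS7, which differed between positions (chr2:3575240-3575269, plus strand): ttccggtttccgCCCTCCTCCTCgcgctgt
RPL28, which differed in the other direction (chr19:55385912-55385941, plus strand): tcgcctcgcccctcgCCTTCCTCTTTCCgt
RPL37A, of large spread across lines (chr2:216498824-216498853, plus strand): cctgcgcaccgcgtCTCTTCCTTTCTgggc
RPS27L, the p53 target, with no such tract (chr15:63157468-63157497, minus strand): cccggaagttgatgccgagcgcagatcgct
Of the 59 tested members with a promoter in that table, 50 (84.7%) held the tract at 1 or more starts, against 8981 of 27305 genes (32.9%) with a promoter. The tract stood in members that differed between arrays and in members that hardly did, and a match of letters is a description only.

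Members were among the brightest genes of the arrays. The deposited intensity averaged over 30000 for 19 of the 70, while the brightest spot of an array lay between 58484 and 68127. Differences of these members may therefore be compressed, which was not tested. RPLP2 of the stalk, RPS29 and RPL41 were the brightest, with mean intensities of 57803, 57526 and 56392. The lowest mean intensities were those of RPL37, RPL36A and RPL7, at 242.9, 572.5 and 569.3. Detection was complete on all 18 arrays for 68 members, RPL39L was detected on 12 arrays and RPL14 on 17. RPL10, the core protein at the subunit interface, and the paralogues RPL10L and RPL3L were detected on 0 of 18 arrays by the probes that carry their names.

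Replicate 2 of every line stood apart, and did not resemble the other arrays of its label. Over all genes tested, each centred on its mean, replicate 2 correlated with replicates 1 and 3 of its own line between -0.0791 and 0.198. With replicate 2 of the other line on its slide it correlated between 0.538 and 0.947. Replicates 1 and 3 of a line had correlations of up to 0.978. They too resembled the same-numbered array of the other line on their slide, at 0.692 to 0.902, and at 0.677 to 0.945 over the 70 members. Over the 70 members alone, replicate 2 correlated between -0.521 and 0.0254 with its own line and between 0.772 and 0.955 with the other line's replicate 2. These are descriptions across genes, which share arrays and are not replicates. The line names below are those of the labels, and whether replicate 2 of a line is an array of that line was not tested. The main counts and medians are therefore given without replicate 2 as well.

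The median intensity of an array ran from 110.4 to 135.2, and 31% to 35% of probes were detected. The keratins KRT8, KRT18 and KRT19 were detected on 18 arrays each. Among the other markers of ductal carcinoma, KRT7, EPCAM and CDH1 were detected on 14 arrays each, and in MiaPaCa2 and Panc1 on replicate 2 alone. Of 6 fibroblast markers, COL1A1 and COL1A2 were detected on 8 arrays each, COL3A1 on 4 and LUM on 3, and DCN and PDGFRB passed no detection filter. CD68 and CD14 were detected on 18 arrays, whereas the leukocyte markers PTPRC and CD3E passed no detection filter. PECAM1, CDH5 and PRSS1 were detected on 3, 4 and 5 arrays, and VWF, CPA1 and CELA3A passed no detection filter. The part of these differences in the results below was not tested.

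Across the 6 lines most ribosomal protein genes kept within a narrow range. In bulk RNA, fewer cells of a kind and less RNA per cell cannot be told apart. The SD among the 6 line means had a median of 0.18 on the log2 scale over the 70 members, against 0.42 over all 11600 genes. It was under 0.2 for 41 of 70 members and for 1464 of 11600 genes. The 19 members of mean intensity over 30000 had a median SD of 0.11 and the other 51 members one of 0.21, so brightness moved with the spread and its part was not tested. Without replicate 2 the medians were 0.23 for members and 0.51 for all genes.

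**Figure D1:**
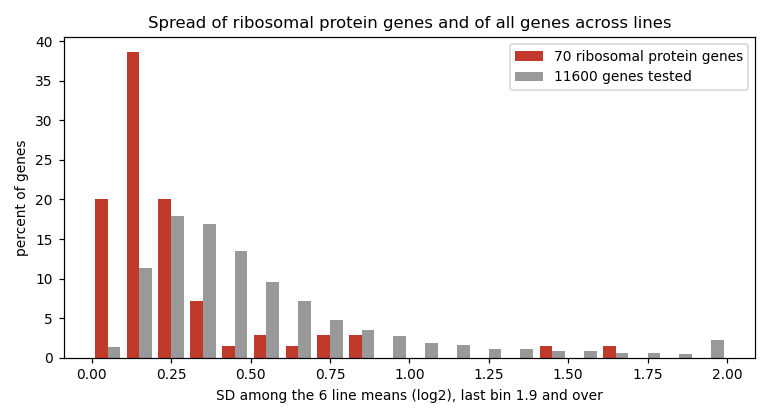
Percent of genes (vertical) by the SD among the 6 line means of normalized log2 intensity (horizontal, bins of 0.1), for the 70 ribosomal protein genes (red) and the 11600 genes tested (grey). The members lie to the left, with a median SD of 0.18 against 0.42 for all genes.

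The smallest SDs were those of RPLP2, RPL39, RPL41, RPS12 and RPL26. All but RPL26 had a mean intensity over 30000, where differences may be compressed, so their order by evenness is not settled. RPLP2 lay between 15.67 and 15.97 on all 18 arrays, with an SD among line means of 0.037. RPL39, a small protein near the exit tunnel, had an SD of 0.041 and RPL41, the smallest ribosomal protein, one of 0.047. RPS12 had an SD of 0.05, and RPL26, known to bind p53 mRNA, one of 0.055. Among small subunit proteins tied to inherited anaemia or 5q loss, RPS19 ranged from 15.25 to 15.64 over line means, RPS14 from 14.51 to 14.71 and RPS26 from 12.18 to 12.63. RPS6, the substrate of S6 kinase, ranged from 13.94 to 14.46, and RPS27, the core relative of RPS27L, from 15.40 to 15.74. Of these 10 members, RPL26, RPS14, RPS26 and RPS6 had a mean intensity under 30000.

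Largest spread belonged to RPL39L, RPL37A, RPL29, RPS23 and RPL36A, with SDs among line means of 1.61, 1.42, 0.86, 0.84 and 0.77. RPL39L, the testis-known paralogue of RPL39, lay near background on some arrays of a line and was bright on others. In resistant lines it had 5.99, 11.45 and 5.43 on MiaPaCa2 replicates 1 to 3, 5.32, 11.14 and 5.54 on Panc1, and 11.01, 9.38 and 10.98 on SU8686. In sensitive lines it had 10.87, 5.97 and 11.07 on Panc0403, 10.69, 5.64 and 10.65 on Panc0504, and 11.67, 11.23 and 11.60 on Panc1005. It was thus near background on replicate 2 of both slide 1 lines and on replicates 1 and 3 of both slide 3 lines, and the response groups overlapped. RPL39, its core counterpart, stayed between 14.82 and 15.32 on the same arrays.

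RPL37A, a core protein of the large subunit, was low on 4 arrays. It had 8.90, 13.52 and 8.72 on MiaPaCa2, 9.21, 13.38 and 9.05 on Panc1, and 13.42, 11.86 and 13.33 on SU8686. It had 13.37, 13.54 and 13.33 on Panc0403, 13.25, 13.49 and 13.27 on Panc0504, and 13.44, 12.32 and 13.58 on Panc1005. The low arrays were replicates 1 and 3 of both slide 3 lines. A dimmer probe of the gene, detected on 16 arrays, did not show this: resistant minus sensitive was 0.10 for it and -2.02 for the probe used. RPL37A's pattern therefore rests on 1 probe.

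RPS23, at the decoding centre of the small subunit, was higher in 2 resistant lines. It lay at 10.86, 10.81 and 10.92 on MiaPaCa2 and between 10.86 and 11.25 on Panc1, but 8.96, 10.12 and 8.84 on SU8686. On the sensitive lines it had 9.16, 9.85 and 9.29 (Panc0403), 9.27, 10.17 and 9.08 (Panc0504), and 9.08, 9.61 and 8.80 (Panc1005). SU8686 lay within the range of the sensitive lines.

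**Figure D2:**
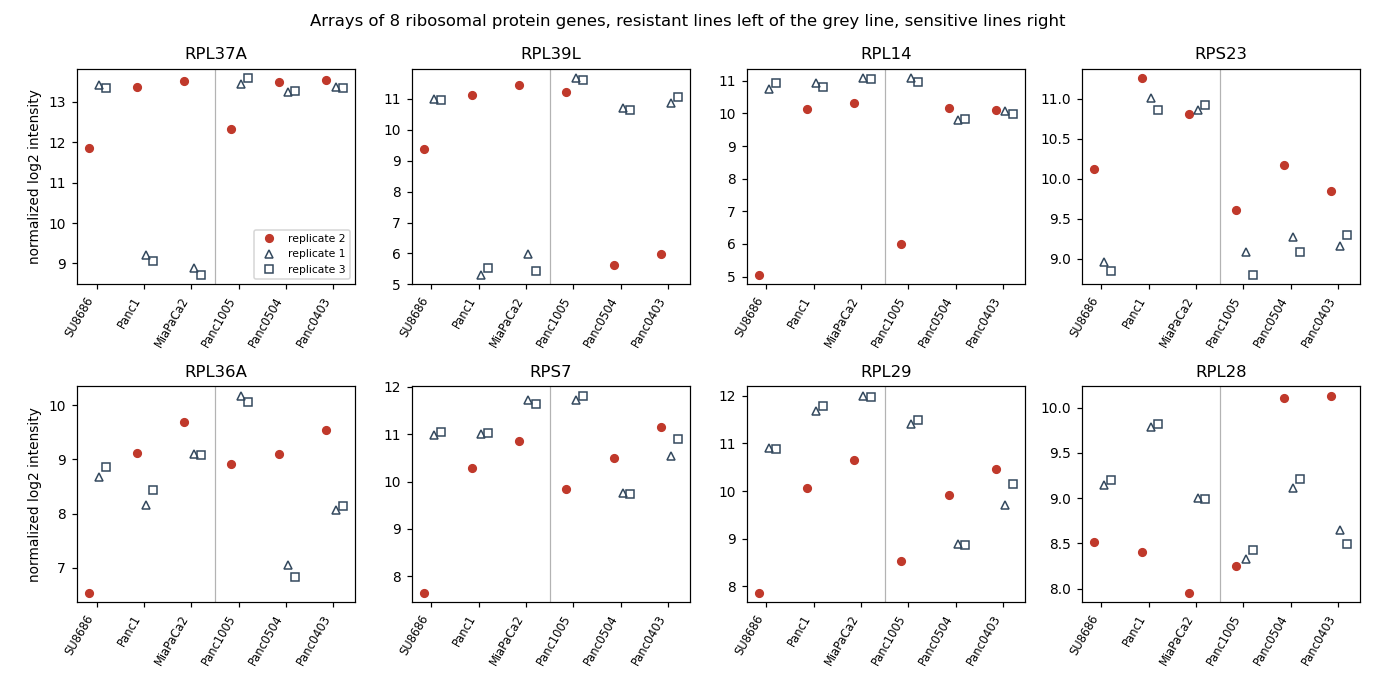
Normalized log2 intensity (vertical) of 8 ribosomal protein genes on each array, with replicate 2 in filled red and replicates 1 and 3 as open symbols, and lines along the horizontal axis, resistant left of the grey line. RPL37A is lowest on replicates 1 and 3 of Panc1 and MiaPaCa2, and RPL14 on replicate 2 of SU8686 and Panc1005.

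A test of any difference among the 6 line means (limma's F test over 18 arrays) called 5 of 70 members, against 35.4% of all genes tested. They were RPS23 (adjusted p = 0.00153), RPL4 (0.00684), RPS27L (0.0128), RPL36AL (0.0228) and RPS10 (0.0251). RPL4, a core protein lining the exit tunnel, averaged 13.47 in MiaPaCa2, 13.62 in Panc1 and 13.85 in SU8686, and 14.36, 14.43 and 13.91 in Panc0403, Panc0504 and Panc1005. RPS27L averaged 11.54, 11.74 and 12.33 in the resistant lines and 12.89, 12.99 and 12.03 in the sensitive ones. RPL36AL, the paralogue of RPL36A, averaged 13.95, 13.86 and 14.61 in resistant lines and 14.64, 14.63 and 14.68 in sensitive lines. RPS10 of the small subunit averaged 15.55, 15.54 and 15.62 in resistant lines, against 15.16, 15.17 and 15.71 in sensitive lines. Without replicate 2 the test called 55 of 70 members, against 91.9% of all genes. Without replicate 1 or without replicate 3 it called 0 members, against 3.02% and 2.94% of all genes. At an unadjusted p under 0.05 there were 2 members in each case, against 1780 and 1785 of all genes.

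Whether resistant lines differ from sensitive lines was asked over line means, 3 against 3. No member passed: 0 of 70 were called, with 3 at an unadjusted p under 0.05, and the smallest adjusted p was 0.244 (limma). Of all genes tested 0% were called, with 2191 at an unadjusted p under 0.05. The median difference, resistant minus sensitive, was -0.05 over members and 0.04 over all genes, with 26 of 70 members above 0. Without replicate 2 the sign turned: the median was 0.05 over members and 0.04 over all genes, 42 members lay above 0, and 0 members and 0 genes were called, with 5 members and 1796 genes at an unadjusted p under 0.05 (limma). It was -0.16 over members without scaling between arrays and -0.19 with median scaling, with 0.00 and -0.03 over all genes. The large and small subunits had medians of -0.04 and -0.06 over all arrays. The 3 core members of largest moderated statistic below 0 were RPL37A, RPL8 and RPL4. RPL37A averaged 11.27 ± 1.39 in the resistant and 13.29 ± 0.16 in the sensitive group (SD, n = 3 each), a difference of -2.02 (SE 0.66, adjusted p = 0.244, limma). RPL8 differed by -0.45 and RPL4 by -0.59, with adjusted p of 0.251 and 0.252. Above 0, RPS23 averaged 10.40 ± 0.95 in the resistant and 9.37 ± 0.18 in the sensitive group (SD, n = 3 each; limma adjusted p = 0.288). RPL17 and RPL29 differed by 0.44 and 0.93 with adjusted p of 0.295 and 0.355.

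Line means of resistant and sensitive lines did not overlap for 14 of 70 members, against 21.8% of all genes. Every resistant line lay above every sensitive line for 3 members, RPL17, RPS16 and RPS18, against 12% of all genes. Every resistant line lay below for 11 members, against 9.71% of all genes: RPL3, RPL4, RPL8, RPL11, RPL12, RPL36AL, RPL37A, RPLP1, RPS3, RPS13 and RPS29. For RPS29, SU8686 averaged 15.8695 and Panc0403 15.8722. Line means of a further detected probe overlapped for RPL17, RPL8, RPL11, RPL12, RPL36AL, RPL37A, RPLP1 and RPS29. Those of the further probe of RPL3 and of another probe of RPLP1 did not. RPL3 of the peptidyl transferase centre averaged 14.10 over the resistant lines and 14.39 over the sensitive lines. RPL11, the MDM2-binding protein, averaged 14.31 and 14.49 in the same order, with all 6 line means between 14.23 and 14.56. RPLP1 of the stalk averaged 14.31 ± 0.12 in the resistant and 14.63 ± 0.09 in the sensitive group (SD, n = 3 each). None of these passed the test.

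Leaving out SU8686 gave 3 called members, RPL37A, RPS23 and RPL36AL, against 20.1% of all genes. Leaving out any other line gave 0 called members, with 0 to 6 members and 745 to 3036 of all genes at an unadjusted p under 0.05 (limma). Of all 11600 genes, 365 were called without Panc1005, and 0 without MiaPaCa2, Panc1, Panc0403 or Panc0504. With Panc1 and MiaPaCa2 (slide 3) set against Panc0504 and Panc0403 (slide 1), 12 of 70 members were called, against 46.7% of all genes. 4 were higher in the resistant pair, against 24.5% of all genes, and 8 lower, against 22.2%. RPS23 was higher by 1.48 (adjusted p = 0.0018), RPL29 by 1.70, RPL14 by 0.72 and RPL17 by 0.64. RPL37A differed by -2.91 (adjusted p = 0.00018), RPL39L by -1.67, RPS27L by -1.30, RPL13A by -1.22, RPL4 by -0.85, RPL36AL by -0.73, RPL9 by -0.55 and RPL8 by -0.52. Response and slide cannot be told apart in that contrast. A further probe of RPL14 averaged 8.04 and 7.84 in MiaPaCa2 and Panc1, against 7.86 and 7.93 in Panc0403 and Panc0504. That of RPL8 averaged 9.54 and 9.23, against 9.84 and 8.97 in the same order, so the pairs overlapped for both. The further probe of RPL37A was higher in the resistant pair. Further probes of RPL29, RPL17, RPL39L, RPL36AL and RPL9 kept the direction. On slide 2, the only slide with both responses, SU8686 minus Panc1005 was -0.59 for RPL29, -0.43 for RPL14, 0.32 for RPL13A and 0.30 for RPS27L, each opposite in sign to the slide 3 against slide 1 difference. The other 8 had the same sign on slide 2, from -1.05 for RPL39L to 0.14 for RPS23.

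The 2 lines of a slide were then compared, later against earlier positions. In the 18-array fit 0 members were called in any pair: Panc0504 against Panc0403 called 0.00862% of all genes, SU8686 against Panc1005 0.526% and Panc1 against MiaPaCa2 0%. At an unadjusted p under 0.05 there were 0, 2 and 0 members in the same order, against 695, 1247 and 261 of all 11600 genes. Same-numbered arrays of a slide deviated together (correlations of 0.697 to 0.938), so a replicate block within slide was fitted, chosen after seeing the data. Replicate 2 stood apart in both lines of a slide, and its part in these correlations was not tested. Correlations between arrays of different number were not taken, so pairing of replicates 1 and 3 by number was not shown. With that block, Panc0504 minus Panc0403 gave 3 members lower and 9.48% of all genes called, 4.88% lower. They were RPL36A at -0.93 (SE 0.23), RPL29 at -0.89 (SE 0.15) and RPL34 at -0.74 (SE 0.15), with limma adjusted p of 0.036, 0.02 and 0.023. SU8686 minus Panc1005 gave 8 members and 24.1% of all genes. RPL28 was higher by 0.62, against 13.3% of all genes higher. The 7 lower members, against 10.8% of all genes, were RPL36A at -1.68, RPS7 at -1.23, RPL39L at -1.05, RPS21 at -0.72, RPL29 at -0.59, RPL34 at -0.53 and RPL35 at -0.45. A further probe of RPL34, detected on 18 arrays, was at 0.07 here and at -0.06 for Panc0504 minus Panc0403. Panc1 minus MiaPaCa2 gave 0 members and 0.345% of all genes, with 7 members at an unadjusted p under 0.05. The count of all genes at that bound is not given here, so no leaning of members can be read from it. Without replicate 2 and without the block, the 3 pairs in the same order called 11, 9 and 14 members, against 42.3%, 37.7% and 28.4% of all genes.

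Over the 3 slides together, later minus earlier on line means called 0 members and 0% of all genes, with 8 members and 2820 genes at an unadjusted p under 0.05. A fit with the replicate block within slide took pairs of same-numbered arrays, not lines, as replicates. It called 10 of 70 members for the same differences, against 34.0% of all genes. 3 were higher at later positions, against 17.7% of all genes, and 7 lower, against 16.3%. No member's position effect differed between slides in tests of the difference with that block, which called 69, 0 and 140 of all genes. At an unadjusted p under 0.05 there were 2, 3 and 2 members, and the count of all genes at that bound is not given here. RPL36A and RPS7 moved most.

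RPL36A, a core protein near the exit site, was lower at later positions in 9 of 9 pairs of same-numbered arrays. It had 7.04, 9.09 and 6.83 on Panc0504 and 8.06, 9.55 and 8.15 on Panc0403. On slide 2 it had 8.68, 6.54 and 8.87 on SU8686, against 10.17, 8.92 and 10.06 on Panc1005. On slide 3 it had 8.16, 9.11 and 8.43 on Panc1, against 9.10, 9.70 and 9.08 on MiaPaCa2. Groups overlapped within slides 1 and 3, through replicate 2, and did not on slide 2. The mean difference was -1.11 (SE 0.13, adjusted p = 0.00069 with the block and 0.077 on line means, limma).

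RPS7, a small subunit protein known to bind MDM2, was also lower in 9 of 9 pairs. It had 9.77, 10.50 and 9.74 on Panc0504, against 10.54, 11.14 and 10.90 on Panc0403. SU8686 had 10.98, 7.66 and 11.05, against 11.73, 9.85 and 11.80 on Panc1005. Panc1 had 11.01, 10.28 and 11.02, against 11.71, 10.86 and 11.64 on MiaPaCa2. The lines did not overlap on slide 1 and overlapped on slides 2 and 3. The mean difference was -0.91 (SE 0.14, adjusted p = 0.0022 with the block and 0.071 on line means, limma), and -0.96 for the other probe of the gene.

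RPL29, RPS21 and RPL35 were lower in 9 of 9 pairs too, with mean differences of -0.62, -0.51 and -0.26 (adjusted p of 0.0014, 0.0063 and 0.022 with the block, limma). On line means the adjusted p of RPL29 was 0.099, and no member had one under 0.071 (limma). Over the genes tested, 8.13% were lower and 7.19% higher in 9 of 9 pairs, against 5 and 2 of the 70 members. RPL34 was lower in 7 and RPL39L in 8 of 9 pairs, by -0.45 and -0.55 on average, and RPL39L was near background on 6 of these arrays. A further probe of RPL34, detected on 18 arrays, was at -0.02, so the RPL34 calls rest on 1 probe. Of the members higher at later positions, RPL13A, known as a translational silencer when released from the ribosome, rose by 0.32 in 9 of 9 pairs. RPS27L was higher by 0.20 in 9 of 9 pairs, and RPL28, a core protein of the large subunit, by 0.57 in 8 of 9.

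**Figure D3:**
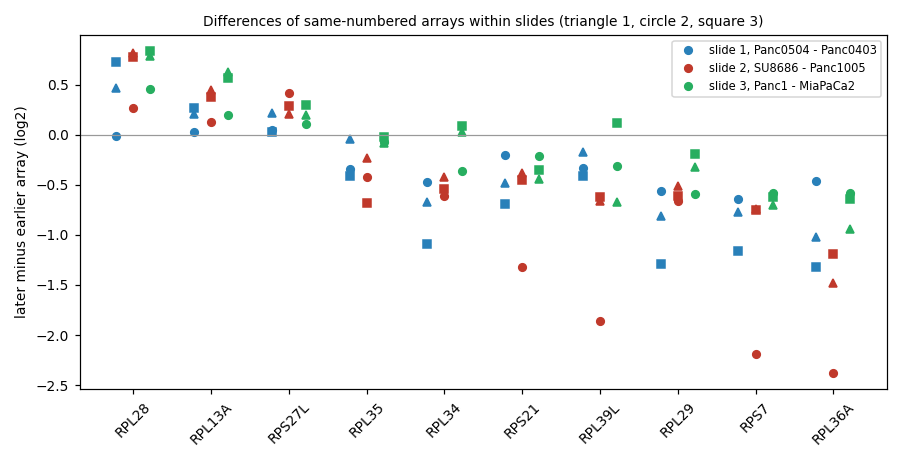
Later minus earlier normalized log2 intensity (vertical) for the 3 same-numbered array pairs of each slide, for the 10 members called with the replicate block within slide. RPL36A, RPS7, RPL29, RPS21 and RPL35 lie below 0 in 9 of 9 pairs, and RPL13A and RPS27L above 0 in 9 of 9.

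Members with several probes did not always give 1 answer. Of 45 further detected probes in 33 genes, 8 differed from the probe used by over 0.5 in later minus earlier. 7 of them were lower: 1 further probe each of RPS15, RPS24, RPL6, RPL36, RPS26, RPL8 and RPL13 had -0.99, -0.85, -0.79, -0.70, -0.66, -0.63 and -0.53. The probes used for these genes had -0.05, -0.09, -0.04, 0.12, -0.01, -0.11 and 0.00. The remaining probe of RPS15 was at -0.04 and that of RPL6 at -0.11. A further probe of RPS29 went the other way, at 1.13 against 0.03, while its other 2 further probes were at 0.02 each. Over all 115 detected member probes, 12 were lower and 3 higher in 9 of 9 pairs. The same count over all detected probes of the arrays was not taken, so no leaning of the members can be read from it.

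Other genes of ribosome production and translation were counted in the same way. The counts are those with the replicate block within slide, which called 17.7% of all genes higher and 16.3% lower. On line means 0 genes of these lists were called (limma), with adjusted p of 0.0711 for NOLC1 and 0.0728 for BOP1. Of 44 measured ribosome biogenesis factors, 37 were lower and 0 higher at later positions, and their median difference was -0.45, against -0.01 over the 70 members and 0.02 over all genes. BOP1 of the large subunit processing complex was lower by 0.92 and NOLC1, a nucleolar chaperone, by 0.87 (adjusted p of 0.0036 and 0.0019, limma). BOP1 averaged 9.90 in Panc0504 against 10.93 in Panc0403, 10.64 in SU8686 against 11.85 in Panc1005, and 11.67 in Panc1 against 12.20 in MiaPaCa2. Among 77 mitochondrial ribosomal proteins 36 were lower and 0 higher, with a median of -0.22. MRPL42 and MRPL19 were at -0.65 and -0.62.

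Among 25 subunits and factors of RNA polymerases I and III, 11 were lower and 0 higher, led by POLR3G at -0.98 and TAF1A at -0.79. Of 27 translation initiation factors 13 were lower and 2 higher, with EIF1AX at -0.64 and EIF2B3 at -0.58. Of 19 elongation factors and other carriers of the pyrimidine tract 2 were lower, HNRNPA1 at -0.96 and IPO5 at -0.35, and 1 was higher. Regulators of ribosomal protein genes had 3 of 17 higher, among them MNT, a MYC antagonist, at 0.61 and TSC1, an inhibitor of mTORC1, at 0.48. The 9 measured genes of the ribosome-linked p53 response and the 4 cytosolic ribosomal proteins named otherwise had 0 called in either direction. Of the latter, RPL22L1 was at -0.23 and FAU at -0.15.

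**Figure D4:**
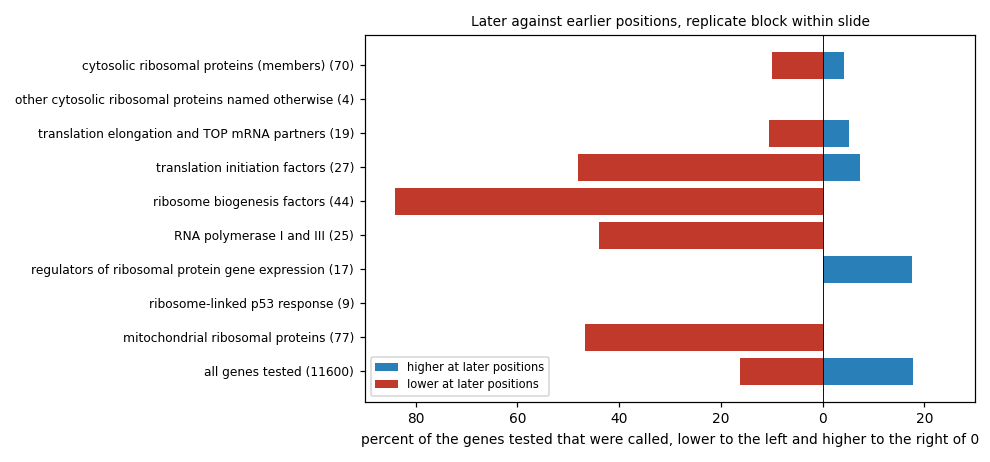
Percent of the measured genes of each list called lower (red, left) or higher (blue, right) at later than at earlier positions with the replicate block within slide, with the number tested in parentheses. Of the cytosolic ribosomal protein genes 7 of 70 were lower and 3 higher, and of the ribosome biogenesis factors 37 of 44 were lower and 0 higher.

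Against response, none of these lists had a gene called over the 6 line means. The largest differences, resistant minus sensitive, were -3.16 for CDKN1A, the p53-induced cell cycle inhibitor (adjusted p = 0.239), and -1.21 for MXD1, a MYC antagonist (0.242). POLR3E and GTF3C1 differed by -0.97 and 0.95, MRPL41 and MRPS31 by 0.88 and -0.83, FBL and RRP1B by 0.85 and 0.82, and EIF6 and EIF5 by -0.85 and -0.82. MAX, SESN2, EIF3K and EIF3L differed by -0.83, -0.77, 0.59 and -0.52, and RPL26L1 and RPL7L1 by 0.40 and 0.31. The median over the 44 ribosome biogenesis factors was 0.12, and 0.37 without replicate 2. For slide 3 against slide 1, which called 24.5% of all genes higher and 22.2% lower in the resistant pair, 15 of these 44 were higher and 1 lower. Polymerase I and III subunits and factors had 8 of 25 higher and 2 lower, and mitochondrial ribosomal proteins 11 of 77 higher and 6 lower. Initiation factors had 6 of 27 in each direction, and the p53 response genes 3 of 9 in each. Elongation factors and tract carriers had 1 of 19 higher and 5 lower, and regulators 2 of 17 higher and 6 lower. Of the ribosomal proteins named otherwise, 2 of 4 were higher and 0 lower.

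Replicate 2 was set against replicates 1 and 3 within each slide. On slide 1, 32 of 70 members were called, against 50.1% of all genes. 29 were higher in replicate 2, against 23.9% of all genes, and 3 lower, against 26.2%. On slide 2, 45 were called, against 59.8%: 3 higher, against 30.1%, and 42 lower, against 29.7%. On slide 3, 43 were called, against 55.3%: 9 higher, against 27.2%, and 34 lower, against 28.1%. The median difference of members was 0.22 on slide 1, -0.39 on slide 2 and -0.28 on slide 3, with -0.03, -0.01 and -0.02 over all genes. The size of these medians depended on the scaling and their direction did not. Without scaling between arrays those of members were 0.23, -0.43 and -0.37 on slides 1, 2 and 3, with -0.12, 0.18 and 0.03 over all genes. With median scaling of detected probes they were 0.42, -0.62 and -0.42, with 0.06, -0.01 and -0.03 over all genes. Median scaling also gave 45 members higher on slide 1, against 26.9% of all genes, and 58 lower on slide 2, against 29.7%. Without scaling, 38.7% of all genes were higher on slide 2 and 22.3% lower, and 3 members were higher and 48 lower.

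Members thus moved mostly 1 way within a slide, and the way differed between slides. Both subunits did so: on slide 2, 28 of 44 large and 14 of 26 small subunit genes were lower, and on slide 1, 19 and 10 were higher. 20 members were higher on slide 1 and lower on slide 2, against 9.43% of all genes, and 0 were lower on slide 1 and higher on slide 2, against 10.1%. Of the 20, 15 were lower on slide 3 as well, against 3.69% of all genes for all 3 calls together. No member was called in the same direction on all 3 slides, against 4.83% of all genes. The effect itself differed between slides for 44 members (slides 1 and 2), 47 (slides 1 and 3) and 32 (slides 2 and 3), against 60.8%, 58.8% and 56.7% of all genes. Share of the summed array intensity carried by members moved alike: it was 5.50% and 5.25% on replicate 2 of Panc0504 and Panc0403 and 4.43% to 4.68% on their replicates 1 and 3. It was 3.72% and 4.26% on replicate 2 of SU8686 and Panc1005, against 5.23% to 5.34% on the others of slide 2. It was 4.0% on both slide 3 arrays of replicate 2, against 4.48% to 5.03% on the others.

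**Figure D5:**
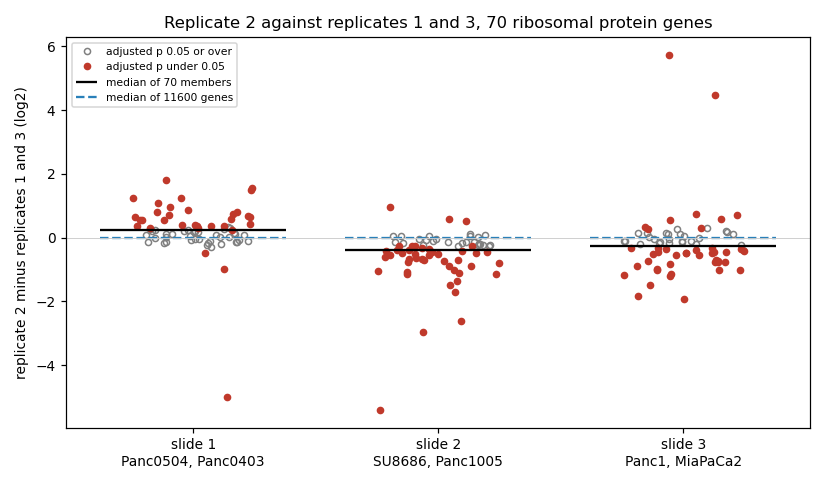
Difference of replicate 2 from replicates 1 and 3 (log2, vertical) for each of the 70 ribosomal protein genes on each slide, filled where the adjusted p is under 0.05, with the member median (black) and the median of 11600 genes (dashed blue). Members lie mostly above 0 on slide 1 (median 0.22) and below 0 on slides 2 and 3 (medians -0.39 and -0.28).

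RPL39L, RPL37A and RPL14 had the largest single differences. RPL39L was at least 26.8-fold lower in replicate 2 on slide 1 and at least 37.5-fold higher on slide 3, where the dim arrays were below detection. Its second probe, below detection on the same arrays, was at least 10.4-fold lower and at least 17.1-fold higher. RPL37A was 4.48 higher in replicate 2 on slide 3, but its second probe was at -0.33 there. That probe averaged 7.21 in MiaPaCa2 and 7.16 in Panc1. The lowest levels detected on those arrays were 5.91 to 6.10, so it had little room to show a fall of that size. RPL14 of the large subunit had 5.06 on replicate 2 of SU8686, below detection, and 6.0 on that of Panc1005, against 10.76 to 11.08 on the other slide 2 arrays. The value of 6.0 lay at the lowest level detected on that array (5.99), so the fitted difference of -5.41 (adjusted p = 1.34e-11, limma), with 1 of 2 replicate 2 arrays detected, gives no exact size. Its second probe, detected on 18 arrays and dimmer, was at -1.17.

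Several further members had more than 1 probe. RPL29 was at -2.98 and -2.89 and RPS7 at -2.63 and -2.90 on slide 2 for the probe used and the other. RPS4X, a small subunit protein encoded on the X chromosome, was at -1.48 and -1.62 there, and at 1.09 and 1.14 on slide 1. RPL17 was at -1.10, -1.13 and -1.59 on slide 2 over its 3 probes. RPL34 on slide 1 was at 1.57 and 1.70. On slide 3 its probes disagreed, at 0.30 and -1.20.

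Other members named by the fixed rule moved as follows. On slide 1, RPL36A was higher in replicate 2 by 1.80, RPL37 by 1.48, RPL28 by 1.25 and RPS27L by 1.24, and RPL22, which also binds viral and cellular RNA, was lower at -0.98 and RPLP1 at -0.48. RPS27L had 13.79 and 13.74 on replicate 2 of Panc0504 and Panc0403, against 12.38 to 12.59 on their replicates 1 and 3, which do not overlap. On slide 2, RPS23, RPS16 and RPL37 were higher by 0.94, 0.57 and 0.53, and RPL36A was lower at -1.71. On slide 3, RPS15A, RPL36A and RPS16 were higher by 0.73, 0.71 and 0.59. RPL13A was lower there at -1.93, RPL13 at -1.85, RPL29 at -1.49, RPL28 at -1.22 and RPL5, the MDM2 partner, at -1.17. RPL13A had 11.23 and 11.03 on replicate 2 of Panc1 and MiaPaCa2, against 12.74 to 13.37 on their other arrays.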

How the data were processed

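Total RNA of 6 lines was measured on 18 arrays. The deposited intensity table holds, per the file headers, a bead intensity and a detection p-value for each of 48107 probes. The authors' series matrix holds log2 values of 47323 of these probes and served as an alternative. The sources used here do not give the software and steps behind either. Intensities were background corrected by normexp (its background taken from the detection p-values, offset 16), quantile normalized and taken to log2 (neqc, limma 3.58.1, R 4.3.3). Of 30113 probes with 1 gene symbol in the platform annotation, 15405 had a detection p under 0.01 on at least 3 arrays. Each gene took its brightest detected probe.

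Response was tested over line means, line pairs over 18 arrays, position over line means with slide as a block, and replicate 2 within slides. All used limma with Benjamini-Hochberg adjustment over 11600 genes at 0.05, and the fits were tested on simulated data. Same-numbered arrays deviated together within slides (0.697 to 0.938) but not across slides (-0.088 to 0.229), so the replicate block within slide was added after seeing the data. P-values over arrays measure the spread between arrays of a line. With the replicate block within slide they measure the spread of differences between same-numbered arrays. Neither measures the spread between lines, so the blocked position test took array pairs, not lines, as replicates. For arrays, precision is limited by their number.

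Members, gene lists and tests were chosen with earlier results of these data known. Named members were those called with the largest differences (up to 5 a direction, or the 3 of largest statistic where fewer than 3 were called), a list of paralogues, stalk and disease-linked proteins, the brightest, dimmest and undetected, and the 5 of largest and smallest spread. Probe sequences were not used here, so binding to pseudogenes or paralogues was not tested. Some cytosolic ribosomal protein genes are not reported here.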

Additional observations from a re-analysis of the deposited data

Results flagged for a closer look

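Among 41 named members in 2 response groups of 9 arrays each, 13 of 82 groups had an array whose gap to the next exceeded Dixon's 95% critical value of 0.493 of the range. Chance flags about 1 in 20 groups where the values are independent and normal and the genes were not chosen by their values. Arrays of a group came from different lines, and replicate 2 stood apart, so that rate does not apply here. Several of the named members were also chosen for a large replicate 2 difference, so the count is a description. All 13 arrays were replicate 2 of a slide 2 line. On the normalized log2 scale replicate 2 of SU8686 stood apart low in RPL14 (5.06), RPL17 (13.70), RPL29 (7.87), RPL36A (6.54), RPS4X (12.36), RPS7 (7.66), RPS21 (11.63) and RPS26 (11.93). Replicate 2 of Panc1005 stood apart low in RPL14 (6.0), RPL37A (12.32), RPS27 (15.35) and RPS29 (15.67), and its RPS16 value (15.79) stood apart from the other sensitive arrays on the high side.

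By a test of the difference itself, the effect of replicate 2 differed between slides for 44 members (slides 1 and 2), 47 members (slides 1 and 3) and 32 members (slides 2 and 3). These are 62.9%, 67.1% and 45.7% of members, against 60.8%, 58.8% and 56.7% of all genes.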

How the results depend on the processing

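Counts of called members changed as follows. For response, 0 became 7 with a replicate block over all slides (whose numbers did not pair across slides; 23.1% of all genes), 3 without SU8686 (20.1%) and 12 with slides 3 and 1 alone (46.7%). The difference of RPL29 reversed to -0.59 with a slide block and on slide 2 alone. For any difference among lines, 5 became 11 with the authors' series matrix (35.7% of all genes) and 0 to 55 on leaving out 1 replicate number. For the pairs, 0 became 0 to 11 (Panc0504 and Panc0403), 0 to 9 (SU8686 and Panc1005) and 0 to 14 (Panc1 and MiaPaCa2) on leaving out 1 replicate number, the upper values without replicate 2. With the replicate block within slide they were 3, 8 and 0. For position, 0 became 1 with deposited log2 intensities (1.18% of all genes), 4 with probes detected on all 18 arrays (6.07%) and 10 with the replicate block within slide (34.0%). The member median for position, -0.01, was 0.02 without replicate 2 and 0.03 with median scaling. Counts for replicate 2, both directions together, stayed within 1.5 times under the alternatives run, and the 29 higher on slide 1 became 45 with median scaling. Of the alternatives for named members, 684 kept their call and direction, 42 gained a call, 2 lost it (RPLP1 on slide 1 with median scaling, RPL37 on slide 2 with no detection filter) and 2 reversed. The causes were not tested. Signal near the top of the scale may compress bright members, which was not tested, and the offset understates changes of dim ones.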
